A study of Mus musculus with 36 samples.

Results

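Neurexins and neuroligins are the cell adhesion proteins described here: the neurexin genes Nrxn2 and Nrxn3 and the neuroligin genes Nlgn1, Nlgn2 and Nlgn3. They were chosen by gene symbol, with earlier results of these data known, and all 5 were found among the 37315 genes of the count table. Each of them passed the filter on low counts in every comparison. Messenger RNA was sequenced from wild-type C57BL/6 mice, which were housed singly and had 5 days of handling at 3 minutes daily. The tissues were the medial (MEC) and lateral (LEC) entorhinal cortex and the hippocampal fields CA3 and CA1. In each region, 3 libraries came from mice given a foot shock (fear), 3 from mice exposed to a context (context) and 3 from mice left in the home cage, and tissue was taken 90 minutes after the behaviour. This gave 12 groups and 36 libraries. All groups share the strain, the housing and the handling, and the labels describe no gene deletion, virus or drug in any of them.

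Neurexins sit mainly in the presynaptic membrane and neuroligins in the postsynaptic membrane, and the pair binds across the cleft. Neurexin genes make long alpha and short beta forms from separate promoters, and their transcripts are spliced in many ways. Cerebellins, the secreted proteins to which the series title refers, and the LRRTM proteins also bind neurexins. Neuroligin-1 is known from excitatory synapses, neuroligin-2 from inhibitory synapses, and neuroligin-3 from both. The deposited values count reads per gene, so alpha and beta forms and splice variants are summed here.

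Total counts per library ran from 21871412 to 68974340, with a median of 28098007, and single members had 838 to 14922 reads per library. Replicates differed by more than the sampling of reads. Marker genes were used to check the region labels. The 5 markers of CA3 pyramidal cells summed to 535 to 702 CPM (counts scaled to a library total of 1000000) in CA3 libraries and to at most 328 CPM in any other library. In CA1 they summed to 111 to 328 CPM after fear, 70.7 to 89.3 CPM after context and 82.6 to 250 CPM in home cage. The part of this difference in the CA1 member changes was not tested. Neocortical layer markers reached 250 to 440 CPM in LEC and MEC libraries, against 101 to 140 CPM in CA3 and CA1 libraries. The CA1 pyramidal markers did not separate CA1 from cortex, at 529 to 1520 CPM in CA1 libraries and 679 to 1080 CPM in LEC and MEC libraries. Dentate granule cell markers reached 146 to 685 CPM in CA1 libraries and 78.9 to 306 CPM in CA3 libraries, against 65.0 to 117 CPM in the cortical libraries. In tissue RNA, a change in the number of cells of a type and a change in RNA per cell cannot be told apart.

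The genes differ greatly in size and base composition. All positions are on GRCm38 (mm10), as annotated in GENCODE M21. Nrxn3 (ENSMUSG00000066392) covers 1612.1 kb of the plus strand of chromosome 12, from 88722876 to 90334935, with 12.605 kb of exon at 49.6% GC. Nrxn2 (ENSMUSG00000033768) lies on the plus strand of chromosome 19, from 6418731 to 6544169, and its 13.812 kb of exon are at 61.4% GC. Nlgn1 (ENSMUSG00000063887) lies on the minus strand of chromosome 3, from 25426215 to 26332460, with 13.422 kb of exon at 41.2% GC. Nlgn2 (ENSMUSG00000051790) is a compact gene on the minus strand of chromosome 11, from 69823122 to 69837784, with 5.785 kb of exon at 59.96% GC. Nlgn3 (ENSMUSG00000031302) is on the plus strand of the X chromosome, from 101299168 to 101325963, with 9.271 kb of exon at 49.7% GC. Exon GC thus put Nrxn2 and Nlgn2 at percentiles 97.9 and 96.0 of genes with a mean count of at least 100, and Nlgn1 at percentile 6.5. An overlapping transcript on the same strand, Gm21986, shares 41.24% of the exon length of Nlgn3, so the deposited Nlgn3 counts are uncertain to that extent. Opposite-strand genes overlap 9.16% of Nlgn1 exon (A830092H15Rik), 4.94% and 1.5% of Nrxn2 exon (Slc22a12 and Gm14964) and 3.48% of Nrxn3 exon (Gm37980), and the strand setting of the counting is not given in the sources used here.

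Nrxn3 was the member whose level moved most between conditions on average over the regions, and its annotated start windows are shown because they are separate starts within 1 gene. RefSeq windows (build GRCm38.p6) that reach from 250 bases before to 50 bases after a start were at hand for Nrxn3, Nlgn1 and Nlgn2. The Nrxn3 windows are at chr12:88794254-88794553, chr12:88953140-88953439 and chr12:89812233-89812532, all on the plus strand and 5′ to 3′, with the motif matches in capitals.
Nrxn3 upstream start: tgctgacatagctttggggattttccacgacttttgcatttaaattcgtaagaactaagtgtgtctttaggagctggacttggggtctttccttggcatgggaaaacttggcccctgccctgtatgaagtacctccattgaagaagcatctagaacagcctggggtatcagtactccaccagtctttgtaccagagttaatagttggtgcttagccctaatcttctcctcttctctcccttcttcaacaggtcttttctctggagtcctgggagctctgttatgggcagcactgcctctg
Nrxn3 middle start: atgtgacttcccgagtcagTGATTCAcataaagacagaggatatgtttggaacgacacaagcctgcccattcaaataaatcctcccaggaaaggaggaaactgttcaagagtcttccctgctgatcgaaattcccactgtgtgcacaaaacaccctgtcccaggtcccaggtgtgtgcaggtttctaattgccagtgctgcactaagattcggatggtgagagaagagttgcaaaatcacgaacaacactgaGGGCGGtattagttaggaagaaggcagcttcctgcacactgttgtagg
Nrxn3 downstream start: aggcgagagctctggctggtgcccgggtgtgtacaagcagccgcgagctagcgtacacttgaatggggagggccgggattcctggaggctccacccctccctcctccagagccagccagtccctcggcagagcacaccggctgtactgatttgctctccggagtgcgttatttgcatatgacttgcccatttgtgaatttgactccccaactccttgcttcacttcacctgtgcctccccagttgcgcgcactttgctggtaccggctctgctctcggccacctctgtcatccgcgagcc
The letters searched on both strands were TGACGTCA (the cAMP response element), TGANTCA (AP-1), CACGTG (the E-box), GCGTGGGCG (EGR) and GGGCGG (SP1). The middle window holds 1 AP-1 match and 1 SP1 match that do not overlap, and the upstream and downstream windows hold no match. Of 32851 RefSeq windows of this length, 7.81% hold the AP-1 letters, 35.7% the SP1 letters, 1.79% the cAMP response element, 7.15% the E-box and 0.612% the EGR letters. Neither Nlgn1 window holds any of the 5 motifs, and the Nlgn2 window holds 3 SP1 matches.

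Set per length of exon, Nlgn2 had the highest level of the 5 genes, at 30.7 ± 5.79 CPM per kb (SD over 36 libraries). Nrxn3 came next at 19.9 ± 5.96 CPM per kb. Nlgn1 at 8.33 ± 1.97, Nrxn2 at 7.63 ± 2.82 and Nlgn3 at 6.66 ± 1.11 CPM per kb lay within each other's spread. The Nlgn3 counts were divided by its whole exon length, 41.24% of which is shared with Gm21986, so its place in this order is uncertain. The neurexin Nrxn3 had its highest level in CA3, at 25.4 ± 6.37 CPM per kb (SD, n = 9 libraries), followed by CA1 at 20.4 ± 5.31, LEC at 19.2 ± 3.27 and MEC at 14.4 ± 2.63 CPM per kb. Nrxn2 was ordered otherwise, with 9.99 ± 2.93 CPM per kb in LEC, 8.23 ± 2.04 in MEC, 6.42 ± 2.83 in CA3 and 5.88 ± 1.54 in CA1. Among neuroligins, Nlgn1 stood at 9.82 ± 1.33 CPM per kb in LEC and 9.40 ± 2.01 in CA3, above MEC at 8.04 ± 0.657 and CA1 at 6.05 ± 1.04. Nlgn3 was highest in LEC at 7.86 ± 0.645 CPM per kb and stood at 6.66 ± 1.27 in CA3, 6.31 ± 0.608 in CA1 and 5.80 ± 0.664 in MEC. Nlgn2 varied least between regions, from 33.9 ± 5.04 CPM per kb in MEC and 32.9 ± 6.29 in LEC to 28.5 ± 5.25 in CA1 and 27.4 ± 4.43 in CA3.

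**Figure D1:**
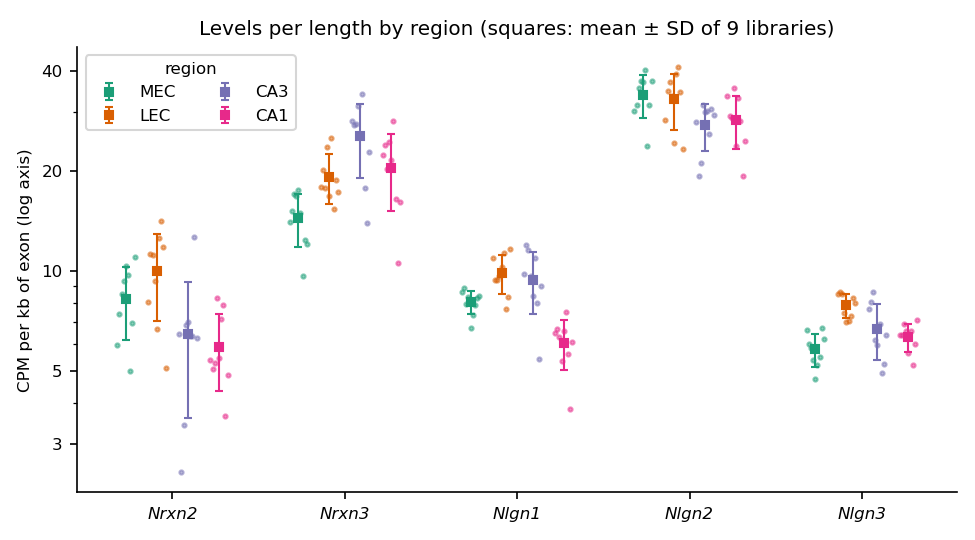
Level of each member per kb of exon (CPM per kb, log axis) by region; small points are the 9 libraries of a region and squares with bars their mean ± SD. Nlgn2 has the highest mean in every region, but in CA3 it lies within the spread of Nrxn3 (27.4 ± 4.43 and 25.4 ± 6.37). Nrxn3 is lowest in MEC at 14.4 and highest in CA3 at 25.4, and Nlgn1 is lowest in CA1 at 6.05 CPM per kb.

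Regions were compared in 1 edgeR quasi-likelihood fit of all 36 libraries, averaged over the conditions, with Benjamini-Hochberg adjustment over 17875 genes and a call at an adjusted p below 0.05. The labels do not tie replicate numbers to mice, so libraries of different regions may come from the same mice, and the spread behind each p-value is that between libraries, which may be technical. In MEC against LEC 3 members were called, all lower in MEC, where 17.4% of all genes were called. MEC against CA3 gave 3 called members, all lower in MEC, beside 38.4% of all genes. For MEC against CA1 the count was 2, Nrxn3 lower and Nlgn1 higher in MEC, beside 43.6% of all genes. LEC against CA3 called 3, with Nrxn2 and Nlgn3 higher and Nrxn3 lower in LEC, beside 39.8% of genes. LEC against CA1 called 3, all higher in LEC, beside 46.6% of genes, and CA3 against CA1 called 2, both higher in CA3, beside 31.0% of genes. With 5 genes, nothing particular to the members is read from these counts.

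The Nrxn3 differences were the most stable across regions. The log2 difference in MEC was -0.90 ± 0.11 (SE) against CA3 (adjusted p = 2.57e-08), -0.51 ± 0.11 against CA1 (adjusted p = 0.000203) and -0.46 ± 0.11 against LEC (adjusted p = 0.00259). In LEC it was -0.45 ± 0.11 against CA3 (adjusted p = 0.00104), and in CA3 it was 0.39 ± 0.11 against CA1 (adjusted p = 0.00553). LEC and CA1, neighbours in the order, did not differ beyond their spread (-0.06 ± 0.11, adjusted p = 0.687). All 5 called Nrxn3 differences were kept on leaving out each replicate of a condition in turn.

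CA1 had the lowest Nlgn1. The log2 difference was 0.71 ± 0.11 for LEC against CA1 (adjusted p = 1.81e-06), 0.69 ± 0.11 for CA3 against CA1 (adjusted p = 6.11e-06) and 0.39 ± 0.11 for MEC against CA1 (adjusted p = 0.00341). LEC and CA3 gave 0.01 ± 0.11 (adjusted p = 0.94). Nlgn1 was also lower in MEC than in LEC (-0.32 ± 0.11, adjusted p = 0.0348) and CA3 (-0.31 ± 0.11, adjusted p = 0.022), but both calls were lost in 5 of 9 fits that left out a replicate of a condition, those without fear 3, context 3 or home cage 3 for each, without fear 2 or context 1 for LEC, and without context 2 or home cage 1 for CA3. For Nlgn3, LEC was higher than CA1 (0.32 ± 0.07, adjusted p = 0.000305) and CA3 (0.19 ± 0.07, adjusted p = 0.029), and MEC was lower than LEC (-0.47 ± 0.07, adjusted p = 7.46e-06) and CA3 (-0.28 ± 0.07, adjusted p = 0.00132). The LEC against CA3 call was lost without fear 1, context 1 or home cage 2, with adjusted p up to 0.0717. Nrxn2 was higher in LEC than in CA1 (0.77 ± 0.20, adjusted p = 0.00235) and CA3 (0.64 ± 0.20, adjusted p = 0.0118), the second lost without fear 3 or context 3. Nlgn2 passed in none of the 6 region comparisons (smallest adjusted p = 0.104), by edgeR or by DESeq2, and at an unadjusted p below 0.05 in none.

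The base composition of what each library counted moved with 2 of the members. The mean exon GC of the counted reads ran from 47.19% to 49.78% over the 36 libraries. In all 4 regions the library of lowest GC had the lowest Nrxn2 and the lowest Nlgn2 of 9. CA3 context 2, at 47.36% GC, had 34.11 CPM of Nrxn2, and CA3 home cage 2, at 49.78% GC, had 174.9 CPM. In LEC, home cage 3 at 47.19% GC had 70.25 CPM of Nrxn2 and home cage 1 at 49.18% GC had 194.5 CPM. Nlgn2 had 135.0 and 237.4 CPM in the same pair of LEC libraries. Nlgn1, the member of low GC, ran the other way there, at 156.1 CPM in home cage 3 and 102.7 CPM in home cage 1. With offsets for exon GC and length, the within-group SD of log2 CPM shrank to 0.13 for Nrxn2, against 0.46 without them, and to 0.18 for Nlgn2, against 0.26. It changed less for Nrxn3 (0.19 with, 0.24 without), Nlgn1 (0.18 with, 0.24 without) and Nlgn3 (0.11 with, 0.14 without). With these offsets Nrxn2 was called in all 6 region comparisons and Nlgn2 in MEC and in LEC against CA1 (0.34 ± 0.08 and 0.53 ± 0.08, adjusted p = 0.000526 and 9.33e-07) and in LEC against CA3 (0.36 ± 0.08, adjusted p = 0.000282). Calls over all genes rose too, to 3878, 8140 and 9132 for MEC against LEC, CA3 and CA1 (3109, 6862 and 7795 without). They rose to 8342 and 9318 for LEC against CA3 and CA1 (7120 and 8329 without). For CA3 against CA1 they rose to 6842 (5549 without). The part of base composition in the other differences was not tested beyond these offsets.

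**Figure D2:**
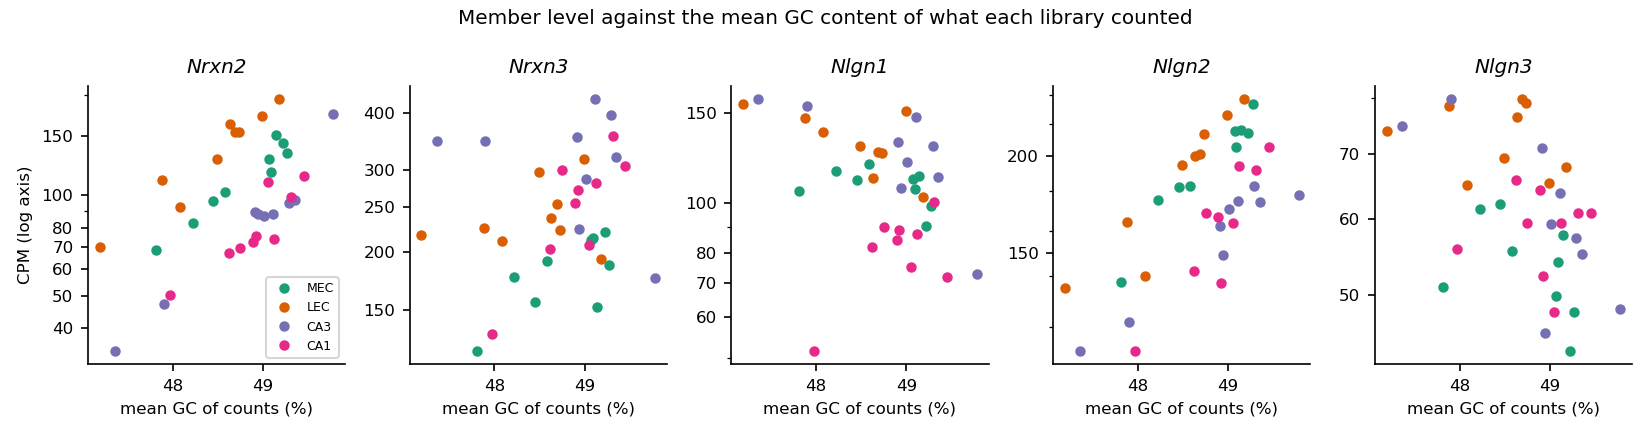
Level of each member (CPM, log axis) in the 36 libraries against the mean exon GC of the reads each library counted, coloured by region. The Nrxn2 and Nlgn2 points climb with GC, with the lowest Nrxn2 value, 34.11 CPM, at 47.36%, while the Nrxn3 points show no such slope.

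Changes averaged over the 4 regions came from the same fit of all 36 libraries. Libraries of different regions may share mice but are treated there as independent, so the p-values of these averages may be too small. Averaged over the 4 regions, Nrxn3 rose after fear and after context. The log2 change was 0.67 ± 0.09 (SE) for fear against home cage (adjusted p = 8.13e-06) and 0.52 ± 0.09 for context against home cage (adjusted p = 0.000326). Fear and context share the home cage libraries, and fear minus context was 0.15 ± 0.09 (adjusted p = 0.288). Both calls were kept without any one replicate of a condition, at log2 changes of 0.57 to 0.76 after fear and 0.46 to 0.62 after context, and with the GC and length offsets. In fear against home cage 2 of the 5 members were called, both higher, beside 24.1% of all genes, and the median log2 change was 0.26 over the members and 0.00 over all genes. In context against home cage 3 were called, all higher, beside 22.1% of genes, with medians of 0.27 and -0.03. In fear against context 1 was called, lower after fear, beside 3.37% of genes, with medians of 0.15 and 0.02.

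Per library, Nrxn3 in MEC had 212.1, 220.7 and 187.8 CPM after fear and 176.7, 191.3 and 214.0 CPM after context, against 121.8, 155.8 and 151.7 CPM in home cage. Every fear and every context library of MEC was above every home cage library. The same lack of overlap was found for 12% of all genes tested in MEC after fear and 7.91% after context. In CA3, Nrxn3 had 395.8, 320.4 and 429.0 CPM after fear and 355.0, 347.5 and 348.0 CPM after context, against 224.0, 175.3 and 287.8 CPM in home cage. Again no library of either group overlapped with home cage, as for 9.3% of genes after fear and 10.5% after context. In CA1, it had 307.4, 272.3 and 355.3 CPM after fear and 281.6, 301.3 and 255.4 CPM after context, against 207.3, 132.7 and 203.1 CPM in home cage. The groups did not overlap either, a pattern shared by 8.37% of CA1 genes after fear and 9.71% after context. In LEC, it had 298.3, 211.2 and 317.4 CPM after fear and 224.9, 253.6 and 223.2 CPM after context, against 193.4, 237.2 and 217.8 CPM in home cage, and both groups overlapped with home cage. In LEC, 6.85% of genes lay wholly above home cage after fear and 4.25% after context.

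**Figure D3:**
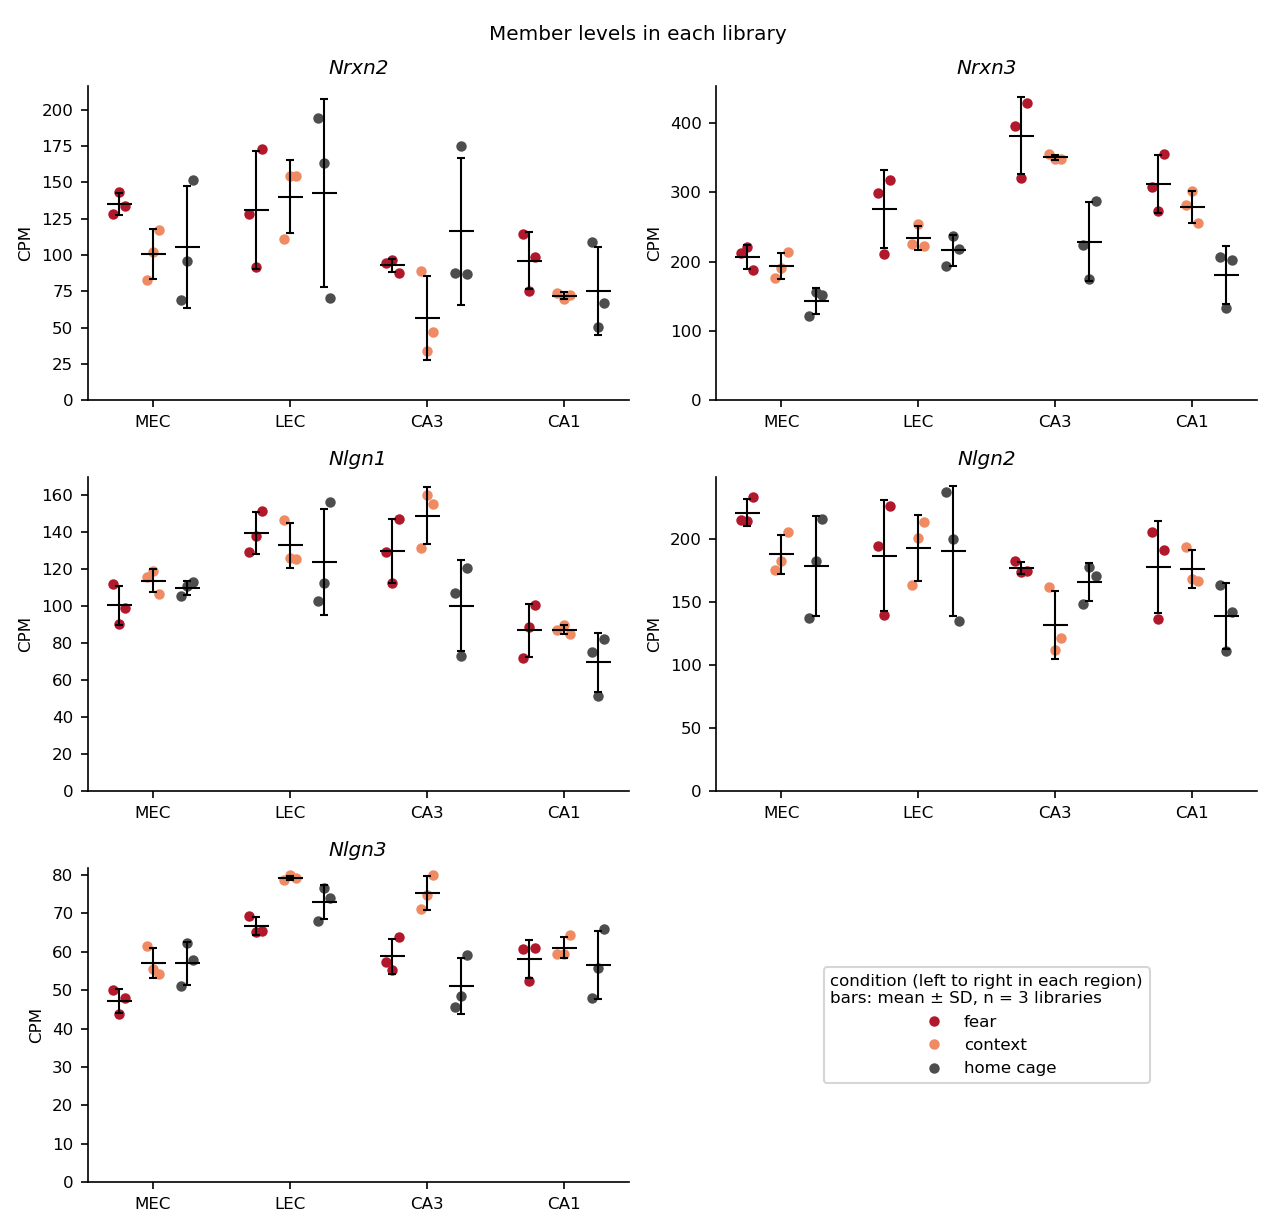
Level of each member (CPM, linear axis from 0) in every library, by region and, within a region, fear, context and home cage from left to right; bars are mean ± SD of 3 libraries. Nrxn3 after fear and after context lies above home cage without overlap in MEC, CA3 and CA1, while in LEC home cage reaches 237.2 CPM and overlaps with both.

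Within single regions, edgeR's fits of 9 libraries each called Nrxn3 in MEC after fear and in CA3 after context. MEC gave a log2 change of 0.57 ± 0.11 after fear (adjusted p = 0.00743), and it was the only member called there, beside 9.56% of all 16314 genes. That call was kept without each library in turn (0.49 to 0.65, adjusted p up to 0.0437) and was lost in the fit of all 36 libraries (0.60 ± 0.19, adjusted p = 0.0997), in which regions of larger spread share 1 estimate with MEC. After context the MEC change was 0.48 ± 0.11 (adjusted p = 0.0586), where 0 members and 0.57% of all genes were called by edgeR and 1 member had an unadjusted p below 0.05. In that comparison same-numbered libraries deviated together, and with the replicate number as a block the Nrxn3 call was made (0.48 ± 0.09, adjusted p = 0.0114), as it was by DESeq2 (adjusted p = 0.0061). Calls over all genes rose as well, to 667 with the block and 559 by DESeq2, against 93 in the main fit.

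In CA3 after context Nrxn3 changed by 0.73 ± 0.20 (adjusted p = 0.0457), with 3 members called beside 13.9% of all 16145 genes. The Nrxn3 call was kept in only 2 of 9 fits without a single library, those without context 1 or home cage 3, and was lost with the GC and length offsets (0.56 ± 0.15, adjusted p = 0.065). Over all genes, 5429 and 3369 were called without context 1 and without home cage 3. Each fit that lost the Nrxn3 call by leaving out a library called 0 genes, and the fit with offsets called 259, against 2243 in the main fit. After fear its CA3 change was of like size, 0.83 ± 0.20, and was not called (adjusted p = 0.15). In that comparison edgeR called 0 members and 0.00619% of genes, 2 members had an unadjusted p below 0.05, and DESeq2 called Nrxn3 (adjusted p = 0.0094). DESeq2 called 640 genes there, against 1 by edgeR. In CA1, edgeR called 0 members and 0% of genes after fear and 0 members and 0% of genes after context, with 3 members at an unadjusted p below 0.05 in each and Nrxn3 called by DESeq2 in both. Over all genes, DESeq2 called 1401 in CA1 after fear and 1061 after context. The Nrxn3 change in CA1 was 0.86 ± 0.18 after fear (adjusted p = 0.0623) and 0.70 ± 0.18 after context (adjusted p = 0.105). Same-numbered fear and home cage libraries of CA1 also deviated together, and with the block the fear change was called (0.87 ± 0.17, adjusted p = 0.0342). The block gave 715 called genes in that comparison, against 0 without it. In LEC, Nrxn3 changed by 0.33 ± 0.17 after fear (adjusted p = 0.686) and by 0.09 ± 0.17 after context (adjusted p = 1). edgeR called 0 members and 0% of genes in all 3 LEC comparisons. There, 1 member (Nlgn3, fear against context) had an unadjusted p below 0.05, and DESeq2 called no member.

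**Figure D4:**
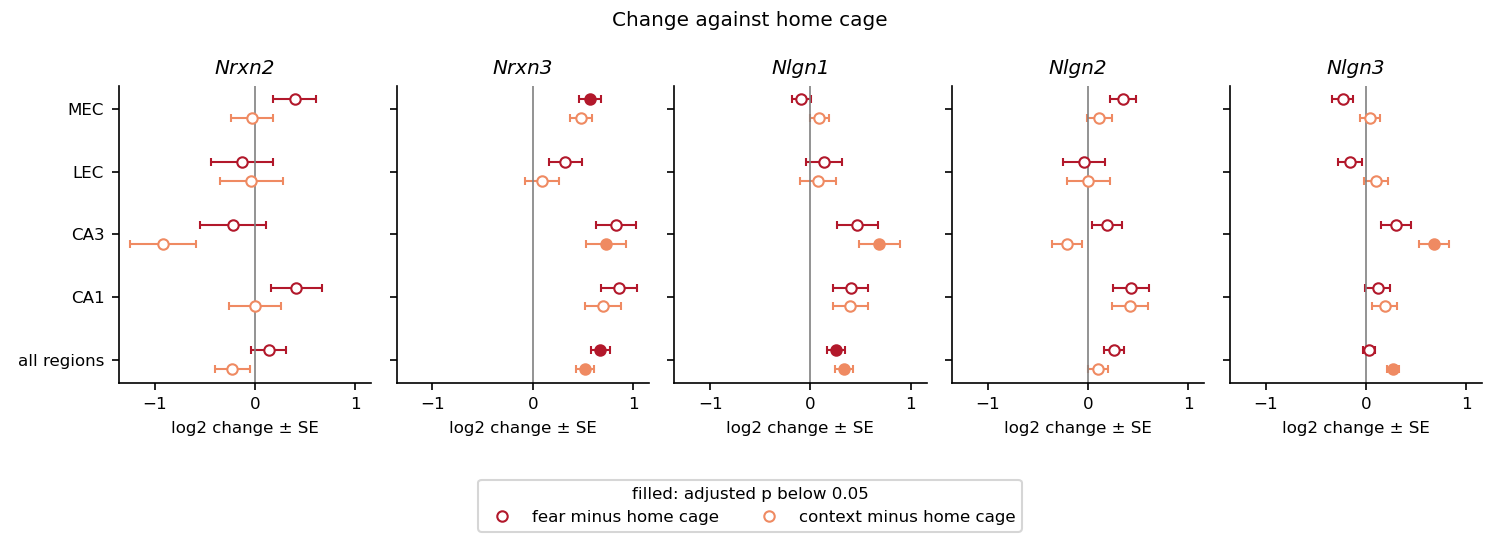
Log2 change ± SE of each member against home cage, after fear and after context, in each region and averaged over regions; filled points have an adjusted p below 0.05. Nrxn3 lies to the right of 0 in every row, from 0.09 in LEC after context to 0.86 in CA1 after fear, and Nlgn3 lies left of 0 after fear in MEC and LEC and right of 0 in CA3 and CA1.

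Nlgn1, the neuroligin of excitatory synapses, rose on average over the regions by 0.33 ± 0.09 after context (adjusted p = 0.00915) and by 0.25 ± 0.09 after fear (adjusted p = 0.0419). The fear call was kept in only 2 of 9 fits that left out a replicate of a condition, those without fear 2 or home cage 3, with log2 changes of 0.15 to 0.39. The context call was lost without context 2 (adjusted p up to 0.0985 over these fits) or without home cage 2, and with the GC and length offsets (0.17 ± 0.07, adjusted p = 0.0689). Within regions it was called in CA3 after context, where libraries had 131.3, 159.8 and 154.9 CPM, against 107.2, 72.86 and 120.4 CPM in home cage. The groups did not overlap, as for 10.5% of CA3 genes, and the log2 change was 0.69 ± 0.20 (adjusted p = 0.0476). With the GC and length offsets it was 0.26 ± 0.13 (adjusted p = 0.25). The CA3 library of lowest GC, context 2, had the highest Nlgn1, and that of highest GC, home cage 2, the lowest. In CA1, Nlgn1 changed by 0.40 ± 0.18 after fear (adjusted p = 0.207) and by 0.40 ± 0.18 after context (adjusted p = 0.215). In MEC it stood at 111.6, 90.37 and 98.83 CPM after fear and 115.4, 119.0 and 106.6 CPM after context, against 105.6, 111.0 and 112.8 CPM in home cage, with overlap throughout.

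Nlgn3 was the only member called between fear and context. Averaged over regions it was 0.24 ± 0.06 lower on the log2 scale after fear than after context (-0.24, adjusted p = 0.0325). It rose after context against home cage (0.27 ± 0.06, adjusted p = 0.00157) and changed by 0.03 ± 0.06 after fear (adjusted p = 0.734). With the GC and length offsets the fear change turned sign and was called (-0.15 ± 0.05, adjusted p = 0.0208), and the context change was 0.15 ± 0.05 (adjusted p = 0.0237). The fear against context call was lost in each of the 6 fits without a fear or context replicate, where the log2 change stayed between -0.29 and -0.17. Over all genes, 0 to 133 were called in those fits, against 602 in the main fit. In LEC, Nlgn3 had 69.31, 65.12 and 65.43 CPM after fear, against 78.61, 79.81 and 79.06 CPM after context. In CA3 it had 57.35, 55.17 and 63.88 CPM after fear, against 71.03, 74.82 and 79.94 CPM after context. In MEC it had 49.94, 43.71 and 48.03 CPM after fear, against 61.37, 55.56 and 54.11 CPM after context. Fear lay wholly below context in these 3 regions, as did 4.26% of genes in LEC, 14.3% in CA3 and 12.6% in MEC. In CA1 the groups overlapped, at 60.82, 52.31 and 60.87 CPM after fear, against 59.44, 59.39 and 64.24 CPM after context, and 7.39% of CA1 genes lay wholly below. Within single regions edgeR called 0 members and 0% of genes in fear against context in MEC, CA3 and CA1, with 1, 2 and 0 members at an unadjusted p below 0.05, and DESeq2 called no member in any of the 3.

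Against home cage, the Nlgn3 change was called in CA3 after context, where the 3 context values above stood against 45.65, 48.35 and 59.22 CPM in home cage (0.68 ± 0.15, adjusted p = 0.045). All 3 CA3 calls, of Nrxn3, Nlgn1 and Nlgn3, were lost in 7 of 9 fits without a single library (home cage 1 or 2, context 2 or 3, or any fear library), with adjusted p up to 0.175, and without context 2 and home cage 2 together. Over all genes, 0 were called in each fit that lost these calls, against 2243 in the main fit. The losses are thus not particular to the members. The Nlgn3 log2 change stayed between 0.61 and 0.82 over the 9 fits without a single library, and with the GC and length offsets its call was kept. In MEC, every fear library was below every home cage library for Nlgn3 (51.03, 62.15 and 57.75 CPM in home cage), as for 19.4% of MEC genes, with a log2 change of -0.23 ± 0.10 (adjusted p = 0.151). With the GC and length offsets that change was called (-0.33 ± 0.08, adjusted p = 0.0102).

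Nlgn2, the neuroligin of inhibitory synapses, changed by 0.26 ± 0.10 on average after fear (adjusted p = 0.054) and by 0.10 ± 0.10 after context (adjusted p = 0.501). With the GC and length offsets the fear change was 0.12 ± 0.07 (adjusted p = 0.225) and the context change was called, at 0.30 ± 0.07 (adjusted p = 0.00262). Its level in MEC was 215.4, 214.4 and 233.3 CPM after fear, against 137.5, 182.6 and 216.3 CPM in home cage, and the log2 change was 0.35 ± 0.13 (adjusted p = 0.0927). With the GC and length offsets the MEC change was -0.01 ± 0.07 (adjusted p = 0.936). Nrxn2 changed by 0.14 ± 0.17 on average after fear (adjusted p = 0.617) and by -0.23 ± 0.17 after context (adjusted p = 0.378). Its largest within-region change, -0.91 ± 0.33 in CA3 after context (adjusted p = 0.0756), came with libraries of 88.94, 34.11 and 47.17 CPM, against 87.59, 174.9 and 86.84 CPM in home cage. With the GC and length offsets it was -0.03 ± 0.11 (adjusted p = 0.915). The GC of these CA3 libraries ran from 47.36% to 48.91% after context, against 48.94% to 49.78% in home cage.

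Whether a change depended on the region was tested directly, over the 4 regions at once. edgeR called 0 members in the fear interaction, beside 0.0168% of genes, and 0 members in the context interaction, beside 0% of genes. DESeq2 called 0 members in both, and 1 member, Nlgn3, had an unadjusted p below 0.05 in each (0.0116 for fear and 0.00329 for context, adjusted p = 0.491 and 0.238). For Nrxn3 the adjusted p was 0.726 and 0.343, so the smaller LEC changes were not shown to differ from those of the other regions.

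Other features of the libraries also differed between home cage and the groups in which Nrxn3 was higher. Among the comparisons within single regions, Nlgn1 and Nlgn3 were called higher together with Nrxn3 only in CA3 after context. On average over the regions, Nrxn3, Nlgn1 and Nlgn3 were also called higher together after context. Cytosolic ribosomal protein genes took 0.846% to 1.05% of counts in MEC after fear and 1.07% to 1.39% in MEC home cage. In CA3 they took 0.675% to 0.817% after context, against 0.95% to 1.63% in home cage, and in CA1 0.977% to 1.29% after fear and 1.07% to 1.22% after context, against 1.59% to 2.29% in home cage. Mitochondrially encoded genes took 4.91% to 5.78% of counts in MEC after fear, against 5.95% to 9.49% in home cage. In CA1 they took 5.28% to 7.16% after fear and 6.17% to 6.34% after context, against 7.49% to 12.15% in home cage, and in CA3 the context and home cage ranges overlapped. Pan-neuronal markers summed to 6270 to 6720 CPM in MEC after fear, against 5240 to 5470 CPM in home cage, with 2 of 5 called higher. In CA3 they summed to 7480 to 8330 CPM after context, against 4680 to 6580 CPM in home cage, with 1 of 5 called higher. The 3 excitatory neuron markers lay the other way in the same libraries, at 4750 to 6620 CPM after context, against 6780 to 7250 CPM in home cage, with none called. Interneuron markers summed to 789 to 847 CPM in MEC after fear, against 618 to 686 CPM in home cage, with 2 called higher. In CA3 they summed to 538 to 635 CPM after context, against 458 to 495 CPM in home cage, with 1 called higher. The CA1 sums were 595 to 722 CPM after fear and 587 to 717 CPM after context, against 386 to 491 CPM in home cage. The median log2 change of the 6 interneuron markers was 0.321 in MEC, -0.154 in CA3 and 0.739 and 0.667 in CA1. Oligodendrocyte markers summed to 2380 to 3320 CPM in MEC after fear, against 1630 to 2310 CPM in home cage, with 5 of 7 called higher, and endothelial markers to 54.9 to 76.0 CPM, against 33.0 to 41.3 CPM, with 3 of 4 called higher. In CA3 after context, astrocyte markers summed to 1630 to 1850 CPM, against 1980 to 2630 CPM in home cage, and blood markers to 9.04 to 19.7 CPM, against 32.4 to 58.4 CPM. No marker of these lists was at 0 in any of the groups named. Their part in the member changes was not tested.

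The wider set of neurexin and neuroligin partners was described with a list of 32 genes: secreted ligands, receptors, scaffolds, the sheddase Adam10 and splicing regulators. Averaged over regions, 12 of 32 were called higher and 0 lower after fear, and 10 of 32 were called higher and 0 lower after context, beside 24.1% of all genes called in either direction after fear and 22.1% after context. The median log2 change of the list was 0.18 in both, against 0.00 and -0.03 over all genes. After fear the 4 of smallest p were Dag1, which encodes the neurexin-binding dystroglycan (0.55 ± 0.11, adjusted p = 0.000605), the scaffold Magi2 (0.39 ± 0.08, adjusted p = 0.000767), the neurexin-binding Clstn3 (0.57 ± 0.12, adjusted p = 0.000968) and Lhfpl4, which links neuroligin-2 to GABA-A receptors (0.33 ± 0.08, adjusted p = 0.00332). Those called after context included Magi2 (0.41 ± 0.08, adjusted p = 0.000703), the neurexin-binding scaffold Cask (0.37 ± 0.09, adjusted p = 0.00338) and Adam10, a protease known to shed neurexins and neuroligins (0.31 ± 0.08, adjusted p = 0.00353). No partner was called in fear against context by edgeR, and 7 of 32 had an unadjusted p below 0.05.

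In MEC after fear, where Nrxn3 was called, 4 of 32 partners were called, near the 9.56% called among all genes. Dag1 (0.57 ± 0.13, adjusted p = 0.018) and Clstn3 (0.57 ± 0.14, adjusted p = 0.0264) were higher, and Lrrtm2, a postsynaptic neurexin ligand (-0.60 ± 0.17, adjusted p = 0.0423), and C1ql2, a secreted one (-1.28 ± 0.38, adjusted p = 0.0465), were lower. In CA3 after context 4 of 31 tested partners were called, all higher, where 13.9% of all genes were called, so the count is no result about the partners. They were Mdga2, whose product blocks neuroligin binding (0.83 ± 0.20, adjusted p = 0.045), Adam10 (0.69 ± 0.18, adjusted p = 0.045), Gphn, the gephyrin gene (0.59 ± 0.16, adjusted p = 0.0458), and Magi2 (0.52 ± 0.16, adjusted p = 0.0477).

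Region differences of single partners spanned a wider range than those of the members. Partner calls numbered 7 of 32 in MEC against LEC and 14 of 32 in CA3 against CA1, and 20 to 24 of 32 in the 4 comparisons of an entorhinal with a hippocampal region, where the shares of all genes called were 17.4%, 31.0% and 38.4% to 46.6%. The cerebellins Cbln4 and Cbln1 were higher in MEC than in LEC by 2.703 ± 0.18 and 2.20 ± 0.19 on the log2 scale (adjusted p = 4.87e-12 and 1.16e-09). In MEC against CA3, Cbln1 (4.32 ± 0.22, adjusted p = 1.49e-16) and the neurexin ligand Lrrtm3 (2.71 ± 0.14, adjusted p = 2.05e-16) were higher and Mdga1, whose product binds neuroligin-2, was lower (-1.44 ± 0.13, adjusted p = 5.41e-11). In LEC against CA1, Lrrtm3 was higher by 2.01 ± 0.14 (adjusted p = 1.16e-13) and Mdga1 lower (-1.25 ± 0.13, adjusted p = 9.48e-10). In CA3 against CA1, Cbln4 was higher (1.60 ± 0.18, adjusted p = 5.95e-08) and Lrrtm3 lower (-0.90 ± 0.14, adjusted p = 4.92e-06). The widest member difference between regions in this fit was the -0.90 of Nrxn3 in MEC against CA3, and with the GC and length offsets Nrxn2 reached 1.11 in LEC against CA1.

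For each member, the 3 genes whose 12 group means of log2 CPM followed it most closely were taken from 8192 well-expressed genes. They were Cap1 (Pearson r = 0.985), Cap2 (0.966) and Ptpra (0.963) for Nrxn3. For Nrxn2 they were Sept5 (0.95), Adcy5 (0.933) and Dact2 (0.93). For Nlgn1 they were G3bp2 (0.984), Uhmk1 (0.98) and Ptprg (0.975), for Nlgn2 Clpb (0.967), Clstn1 (0.966) and Prcc (0.962), and for Nlgn3 B230219D22Rik (0.959), Rap2b (0.957) and Fem1c (0.957). These values describe likeness over group means that share libraries, depth and base composition.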

How the data were processed

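The authors deposited raw read counts per gene, as whole numbers, for 36 polyA libraries (TruSeq Stranded mRNA after TRIzol, per the labels' protocols). Per the submitters' processing notes the tools were Trimmomatic 0.33, STAR 2.7.10b and HTSeq 2.0.1, with mm10. Gene symbols, exon lengths and GC came from GENCODE M21. Counts were filtered with filterByExpr, scaled with TMM (factors 0.87 to 1.08) and fitted with edgeR 4.0.16's robust quasi-likelihood model in R 4.3.3, once per region (9 libraries, 6 residual degrees of freedom) and once for all 36 (24 residual degrees of freedom). Log2 changes carry standard errors; adjusted p is Benjamini-Hochberg over all genes tested. CPM scales counts to a library total of 1000000. The procedure was tested on simulated data.

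The members, the partner list, the marker lists, the tests and the rule for genes named (the members, the 3 most alike genes each, and at most 4 called partners of smallest p in each direction where a member was called) were chosen with earlier results of these data known, and not all partners so selected are printed. Alternatives were RLE scaling, no filter, the replicate number as a block, GC and length offsets (natural splines, 5 degrees of freedom), both together, DESeq2 1.42.0, 1 fit of all libraries, and leaving libraries out. Over 8197 genes, same-numbered libraries deviated together (every correlation above 0.1) in MEC context and home cage (0.638, 0.323 and 0.793) and CA1 fear and home cage (0.324, 0.439 and 0.251), in no other of the 12 comparisons within a region, and in 4 of 18 between regions. Replicates differed by more than sampling noise (chi-square per degree of freedom at least 9.84).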

Additional observations from a re-analysis of the deposited data

How the results depend on the processing

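RLE scaling moved 1 of 105 member changes across the threshold, Nlgn1 on average after fear (1 member called, against 2). DESeq2 moved 6 member changes across the threshold, all into a call, and gave 1 member each for MEC context, CA3 fear, CA1 fear and CA1 context against home cage, against 0. In the same order DESeq2 called 559, 640, 1401 and 1061 of all genes, against 93, 1, 0 and 0 by edgeR. Without the filter on low counts, 2 members were called in MEC fear, 1 in MEC context and 1 in CA1 fear against home cage, and 0 in fear against context over regions. The counts over all genes were 2060, 427, 558 and 297 in that order, against 1559, 93, 0 and 602 with the filter. In 1 fit of all 36 libraries, 0 members were called in MEC fear and 1 each in CA3 fear, CA1 fear and CA1 context against home cage. That fit called 239, 1235, 752 and 905 of all genes in the same order. With the replicate block, 2 members were called in MEC fear and 1 each in MEC context and CA1 fear against home cage, and the block changed no member call other than these and Nlgn3 in MEC against CA1 (-0.15, adjusted p = 0.0334). The block gave 3783, 667 and 715 calls over all genes in MEC fear, MEC context and CA1 fear. With GC and length offsets, 2 members were called in MEC fear and 1 in CA3 context against home cage, and 5 in MEC against CA1. The offsets gave 2141, 259 and 9132 calls over all genes in that order, against 1559, 2243 and 7795 without. With block and offsets together, 2 members were called in MEC fear, 1 in MEC context and 2 in CA3 fear against home cage, 5 each in MEC against LEC, CA3 and CA1, and 4 in CA3 against CA1. Calls over all genes grew there too, to 1471 in CA3 fear (1 without), 2603 in MEC fear (1559 without), 797 in MEC context (93 without), 4178, 8399 and 9290 for MEC against LEC, CA3 and CA1 (3109, 6862 and 7795 without) and 7100 in CA3 against CA1 (5549 without), so the member counts are not read apart from them.

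4 values turned sign and were called only in the alternative. With both block and offsets, Nlgn2 was 0.68 in CA3 context against home cage and -0.19 in MEC against LEC. Nlgn3 on average after fear was -0.15 with the offsets and -0.15 with block and offsets. The cause was not tested. With CA1 and CA3 both lacking context 2 and home cage 2, 0 members were called in CA3 context against home cage, 1 in fear against home cage and 0 in fear against context over regions.

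On leaving out each replicate or library in turn, the number of members called ranged from 1 to 3 in MEC fear, 0 to 1 in MEC context, 0 to 1 in CA3 fear, 0 to 4 in CA3 context and 0 to 2 in CA1 fear against home cage, and from 0 to 2 in CA3 fear against context. It ranged from 2 to 4 in MEC against CA1, from 0 to 1 in the context interaction, from 1 to 3 in fear against home cage and from 0 to 1 in fear against context over regions. Counts over all genes moved too in these fits. The 1559 calls of MEC fear against home cage became 306 to 4486. The 2243 of CA3 context against home cage became 0 to 5429, and the 602 of fear against context over regions 0 to 2099. In the other alternatives these ranges were 239 to 3783, 0 to 5065 and 6 to 1866. Precision is set by 3 libraries a group.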
